A study of Mus musculus with 3 samples.

Results

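Plasmacytoid dendritic cells (pDCs) were examined among CD45+ leukocytes sorted from the sciatic nerve of neuropathic NOD.AireGW/+ mice and profiled by droplet-based 5′ single-cell RNA sequencing. All libraries came from the same genotype, 1 GW allele of Aire beside 1 wild-type allele on the NOD background, and the labels give no age, sex or treatment. Libraries 1 and 2 were made from 1 mouse each and library 3 from 2 pooled mice, so that 3 libraries stand for 4 mice and form a single group with no unaffected control. A cell was counted as a pDC when it had at most 5000 genes and at most 20% mitochondrial UMIs (unique molecular identifiers, each counting 1 captured RNA molecule), at least 2 UMIs of Siglech, at least 1 of Bst2, none of Cd3d, Cd3e or Cd3g, at most 1 of Cd79a and at most 1 in all of C1qa, C1qb and C1qc. The cells were thus selected on raw UMIs of these genes. This rule found 160 pDCs among 13637 cells, with 44 in library 1, 109 in library 2 and 7 in library 3.

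pDCs are dendritic cells with the look of an antibody-secreting cell, known for the rapid release of type I and type III interferons when viral or self nucleic acid reaches Toll-like receptors 7 and 9 in their endosomes. Their identity rests on the E protein TCF4, which binds E-box sequences and is opposed by the inhibitor ID2, the factor that conventional dendritic cells use in its place. In mice they are recognised by SIGLEC-H, a lectin that signals through DAP12, and by BST2 (tetherin, the antigen of the PDCA-1 antibody). AIRE directs the display of tissue antigens in the thymus, and mice with reduced AIRE function on the NOD background develop autoimmune peripheral neuropathy.

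The share of pDCs was 1.14% in library 1 (44 of 3848 cells, exact 95% binomial interval 0.832 to 1.53), 1.32% in library 2 (109 of 8256, 1.09 to 1.59) and 0.457% in library 3 (7 of 1533, 0.184 to 0.939). The mean was 0.973% ± 0.456 (SD, n = 3 libraries). The intervals of libraries 1 and 2 overlapped, and that of library 3 overlapped with library 1 but not with library 2. Intervals of this kind cover counting error alone, and leave out differences between mice and between sorts. The limit on Cd3d, Cd3e and Cd3g removed 64 of 108, 126 of 255 and 1 of 8 cells with at least 2 Siglech UMIs. With at most 1 UMI of these 3 genes allowed, the shares were 1.56%, 1.37% and 0.457%. A share can be low because fewer pDCs were present, each carried fewer captured UMIs of Siglech, or more cells failed another limit of the rule. These cannot be told apart from the counts.

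The libraries held 22983991, 55120460 and 3399733 UMIs, and library 3 was the shallowest, with a median of 1726 UMIs per kept cell against 3956 and 4632.5. The pDCs were deep cells, with a median of 9263.5 UMIs in library 1, 4831 in library 2 and 4136 in library 3. The libraries shared between 7 and 36 cell barcodes pairwise, and no pDC barcode was among them. For comparison, other cells were gated on UMIs of a few genes with at most 1 Siglech UMI. The cDC1 gate (Xcr1 and Clec9a together at least 2), which collects type 1 conventional dendritic cells, held 15, 75 and 3 cells, the B cell gate (Cd79a at least 2 and Ms4a1 at least 1) 191, 214 and 36, and the T cell gate (Cd3d, Cd3e and Cd3g together at least 2) 2811, 3761 and 1170. Gates for cDC2 (Cd209a at least 2) and mature dendritic cells (Fscn1 at least 2 with Ccr7) reached 10 cells in library 2 only, with 13 and 30 cells, and serve as values without a test.

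Among all kept cells, 371 had at least 2 Siglech UMIs, and most of those outside the rule carried UMIs of another lineage. Of these, 191 had Cd3d, Cd3e or Cd3g UMIs, and 142 had at least 6 of them. Those 191 cells had a median of 13446.5 UMIs in library 1, 10441 in library 2 and 7131 in library 3, above the pDC medians, and 75% of them in library 1 and 86.5% in library 2 had a Klk1 UMI. A further 64 cells, all in library 2, had more than 1 C1q UMI, 4 had more than 1 Cd79a UMI and 2 had no Bst2 UMI, with some cells failing on several counts. The data do not tell whether such cells were pairs of cells in 1 droplet, and no doublet caller was run.

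**Figure D1:**
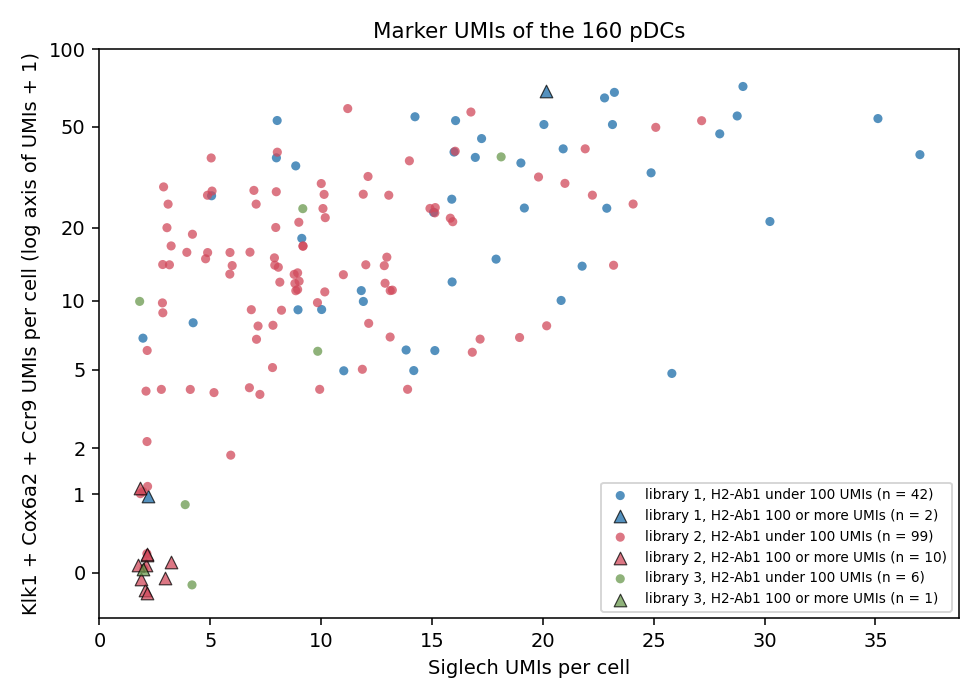
UMIs of Siglech (x axis) against the summed UMIs of Klk1, Cox6a2 and Ccr9 (y axis, log scale of UMIs + 1) in each of the 160 pDCs, jittered slightly and coloured by library, with triangles for cells with at least 100 H2-Ab1 UMIs. Of the 13 cells at 0 on the y axis, 12 had 2 or 3 Siglech UMIs and 10 were triangles. The 79 cells with 10 or more Siglech UMIs all lay above 0.

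Klk1, Cox6a2 and Ccr9 are pDC markers that were named together with the rule, although the rule did not use their UMIs. They therefore describe the members and are no independent check of the label. Of the 160 pDCs, 133 had UMIs of 2 or all 3 of them. Another 14 had 1 of them and 13 had none, with 0, 11 and 2 of these 13 in libraries 1, 2 and 3. Of the 13 cells, 12 had only 2 or 3 Siglech UMIs, 10 had at least 100 UMIs of the MHC class II gene H2-Ab1, and 8 had UMIs of Xcr1, 8 of Id2 and 9 of Batf3, genes known from cDC1. Their median depth was 13306 UMIs, against 5427 in the cells with 2 or 3 markers. At the threshold itself, the 33 cells just outside with 1 Siglech UMI included 0 with Klk1, 2 with Cox6a2 and 2 with Ccr9, and 30 had none of the 3 markers. Just inside, 10 of the 20 cells with 2 Siglech UMIs and 2 of the 11 with 3 had none, compared with 1 of the 50 with 4 to 9 and 0 of the 79 with 10 or more. For each gene whose printed level in library 2 changed by more than 1.5 times without these 13 marker-negative cells, that level is given beside it.

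Levels are given as CPM, a gene's UMIs per 1000000 UMIs summed over the pDCs of a library, and the 3 values in a row stand for libraries 1, 2 and 3. Differences were tested with edgeR's quasi-likelihood test on these sums, fitted with library as a block, and p-values were adjusted by the Benjamini-Hochberg method across every gene in the fit. The tests rest on libraries 1 and 2, because library 3 had 7 pDCs and 3 cDC1-gated cells, under the minimum of 10, and they left 2 residual degrees of freedom. The 18 genes used in any gate got no test. The others come from the same cells that were gated, so the tests describe how the gated cells differed and do not test the gate. Against the cDC1 gate, 708 of 7867 genes were higher in pDCs (9.00%) and 639 were lower (8.12%) at an adjusted p under 0.05. Against the B cell gate, 1103 were higher (14.0%) and 836 lower (10.6%). The same pDC sums enter both comparisons, which are therefore not independent. SEs were derived from the fitted difference and its F statistic.

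Siglech itself stood at 1714, 1608 and 1336 CPM and Bst2 at 4392, 4573 and 4307 CPM, which describes the rule rather than a finding. In a pDC the median Siglech count was 16.5, 8 and 4 UMIs, with a highest value of 37. Outside the pDCs, Siglech reached 24.2 and 15.8 CPM in the cDC1 gate, where the gate allowed 1 UMI, and at most 0.883 CPM in the T cell gate. Bst2 was present throughout, at 333 and 312 CPM in the cDC1 gate and 217 and 250 CPM in the B cell gate of libraries 1 and 2.

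The pDCs held more of a broad set of surface and identity genes than cDC1-gated cells did. Of 31 tested genes of this list, 28 were higher in pDCs than in the cDC1 gate, none was lower, and Ly6a, Il3ra and Nrp1 did not pass, while DESeq2 called 14 of the 31 higher. The list's median log2 difference was 5.20, or 4.92 with the 9 genes at 0 in the cDC1 gate set to their bounds, beside 0.0033 over all genes tested. Against the B cell gate 28 were higher and 1, Ly6d, was lower. The list was drawn up from genes known for pDCs, so its direction is a description.

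Klk1, a tissue kallikrein, stood at 1415, 1461 and 900 CPM in pDCs, against 0 and 1.05 CPM in the cDC1 gate and 0 and 0 in the B cell gate of libraries 1 and 2. The cDC1 gate held 1 Klk1 UMI, and the ratio of CPM was 1670 (95% counting interval 299 to 66000). Cox6a2, the muscle form of a cytochrome c oxidase subunit, was at 535, 739 and 709 CPM, against 0 and 1.05 CPM, a ratio of 756 (135 to 29900). The pDC and cDC1 values of both genes lay far apart in each library, and both passed the test (Klk1 log2 difference 10.17, SE 0.45, edgeR adjusted p = 1.34e-08; Cox6a2 9.17, SE 0.60, adjusted p = 2.19e-07). Reads of Klk1 may be shared with Klk1b27, a near-identical neighbour at 277, 331 and 164 CPM, so the split between these genes is uncertain. Ccr9, the receptor of the gut and thymus chemokine CCL25, was at 1050, 569 and 545 CPM, against 0 and 21 CPM (log2 difference 5.20, SE 0.48, adjusted p = 6.56e-06). With DESeq2 in place of edgeR, Klk1 (adjusted p = 0.172) and Ccr9 (adjusted p = 0.148) did not pass, and neither did Cd209d, Dntt, Sh3bgr, Atp2a1 and Cd59a.

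Other members were found in most pDCs. Atp1b1, a sodium pump subunit, was at 906, 664 and 627 CPM and at 0 in both cDC1 sums, so it was at least 295-fold higher (floor of 3 UMIs over both cDC1 sums). Cd209d, a lectin of the DC-SIGN family, was at 659, 594 and 518 CPM and at least 240-fold higher, although cDC2-gated cells of library 2 also held it at 615 CPM, where reads of the related Cd209a that defined that gate cannot be separated with certainty. Cd7, an immunoglobulin-family receptor of lymphocytes, was at 1151, 1160 and 736 CPM against 14.5 and 2.1 CPM in the cDC1 gate (log2 difference 7.64, SE 0.44, adjusted p = 5.96e-08), and cDC2-gated cells held it at 1037 CPM. Pltp, a phospholipid transfer protein, was at 1298, 1140 and 736 CPM against 0 and 29.5 CPM. Ctsl, the lysosomal protease cathepsin L, was at 1549, 1200 and 1472 CPM against 14.5 and 8.42 CPM (log2 difference 6.81, SE 0.34, adjusted p = 1.34e-08). For each of these genes every pDC library lay above both cDC1 values. A further list of calcium, metabolic and lysosomal genes, which holds Cox6a2 and Ctsl, had 10 of 14 tested genes higher, 1 lower (Alox5ap) and 3 not passing, with Ctsb, another lysosomal protease, at 2028, 1806 and 1390 CPM against 208 and 270 CPM.

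**Figure D2:**
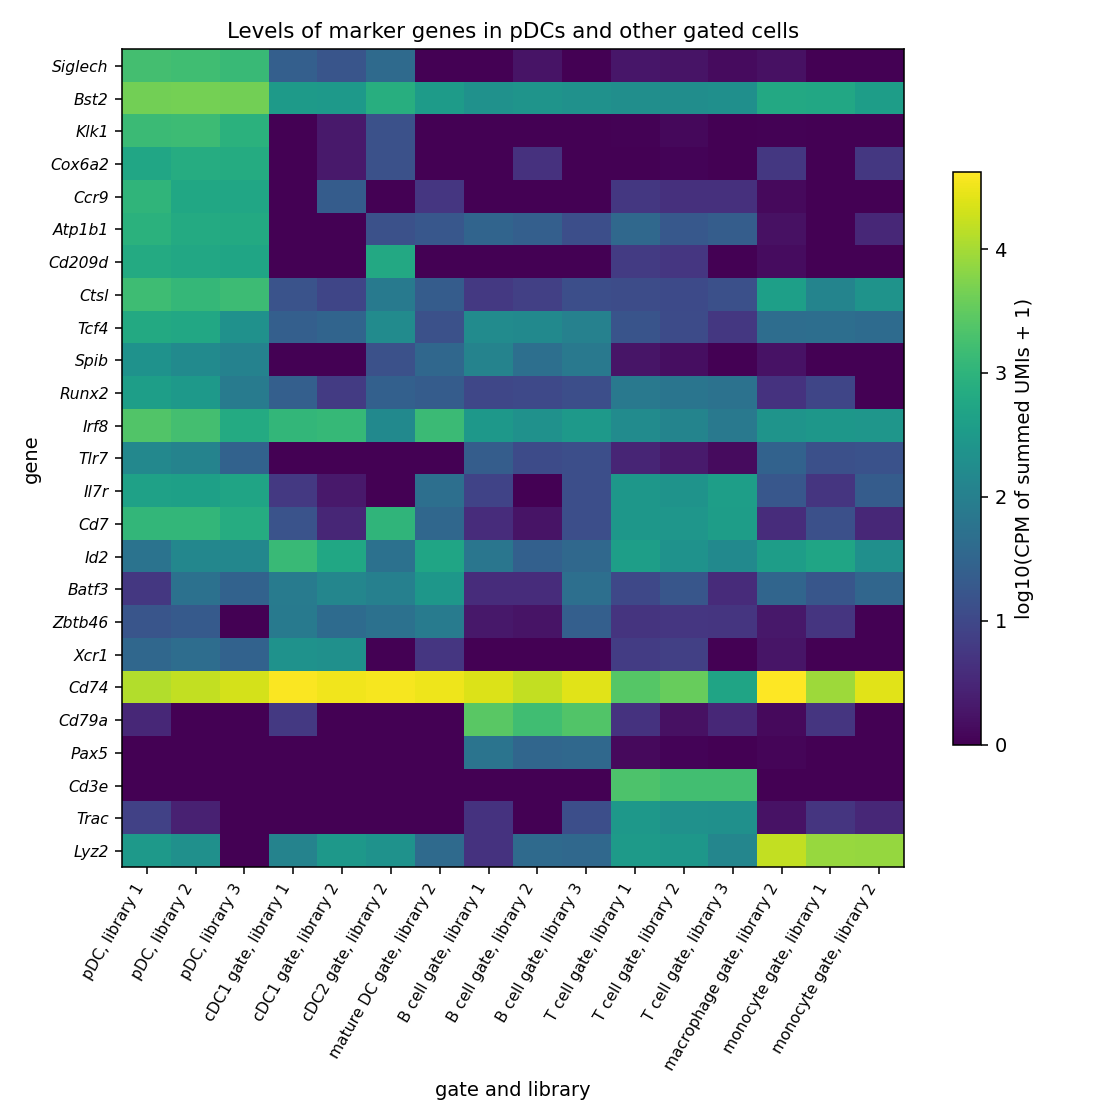
Levels of 25 marker genes (rows) in each gate and library with a usable sum (columns), as log10 of CPM + 1. Klk1, Cox6a2 and Ccr9 are bright in the 3 pDC columns, at 535 CPM or more, and at 21 CPM or less elsewhere; Id2 and Batf3 are brighter in the cDC1 columns.

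Members of the list also differed from each other in how evenly they were spread. Lag3, a checkpoint receptor, was at 236 CPM in library 1 but 91.3 and 81.8 CPM in libraries 2 and 3, and T cells of the same libraries held more of it (652 and 355 CPM in libraries 1 and 2). Ly6c2, a surface antigen used in the monocyte gate, was at 621, 336 and 136 CPM, and was detected in 36 of 44, 51 of 109 and 3 of 7 pDCs. Ly6d, a marker of lymphoid-primed precursors and B cells, was at 110, 117 and 463 CPM, but 5 cells gave 89.8% of its UMIs in library 1 and 80.6% in library 2. It was detected in 7, 12 and 3 pDCs, so its level describes a minority of the cells. Cd4 and Cd8a were in 14 and 13 of 44 pDCs of library 1 and in 34 and 17 of 109 of library 2.

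To compare detection across depths, each cell was thinned to 1000 UMIs. Klk1 was then found in 56.8%, 64.2% and 28.6% of pDCs in libraries 1, 2 and 3 (mean 49.9% ± 18.8, SD, n = 3), Cox6a2 in 36.4%, 48.6% and 57.1%, and Ccr9 in 68.2%, 36.7% and 28.6%. In T-gated cells thinned alike, which are not known for Klk1 or Cox6a2 although some T cells express Ccr9, the means for the 3 genes were 0.00914%, 0% and 0.289%, over 2496, 3645 and 1001 cells deep enough. The T cell gate allowed at most 1 Siglech UMI, so this background is partly fixed by the gate. It left out the cells with Cd3 UMIs and at least 2 Siglech UMIs, of which 75% in library 1 and 86.5% in library 2 had a Klk1 UMI. Unthinned, Ccr9 was found in 95.5%, 83.5% and 71.4% of pDCs, and the order of the libraries was the order of their depth.

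The promoters of these genes are shown because TCF4 acts through E-boxes. The bases below are the 250 before each RefSeq start in build GRCm38.p6 (mm10), 5′ to 3′ on the gene's own strand, and the capitals mark the match to an E-box. The forms searched were CAGGTG, its reverse complement CACCTG, and CAGCTG, which reads alike on both strands.
Siglech (chr7:55767934-55768183, plus strand): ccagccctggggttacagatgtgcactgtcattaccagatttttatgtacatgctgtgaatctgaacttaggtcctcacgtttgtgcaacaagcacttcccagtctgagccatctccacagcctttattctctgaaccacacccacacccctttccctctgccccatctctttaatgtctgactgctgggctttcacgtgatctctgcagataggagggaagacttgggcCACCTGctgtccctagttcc
Klk1 (chr7:44225110-44225359, plus strand): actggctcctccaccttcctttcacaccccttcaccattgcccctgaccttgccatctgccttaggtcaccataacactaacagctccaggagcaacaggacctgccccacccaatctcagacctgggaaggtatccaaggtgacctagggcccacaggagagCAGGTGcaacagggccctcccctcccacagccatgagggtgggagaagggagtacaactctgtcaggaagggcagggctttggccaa
Ccr9 (chr9:123766961-123767210, plus strand): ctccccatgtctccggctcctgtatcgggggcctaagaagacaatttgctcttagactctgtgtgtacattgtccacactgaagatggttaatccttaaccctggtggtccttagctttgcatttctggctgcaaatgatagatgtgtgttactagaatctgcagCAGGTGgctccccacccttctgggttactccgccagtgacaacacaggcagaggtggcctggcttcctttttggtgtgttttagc
Bst2 (chr8:71537473-71537722, minus strand): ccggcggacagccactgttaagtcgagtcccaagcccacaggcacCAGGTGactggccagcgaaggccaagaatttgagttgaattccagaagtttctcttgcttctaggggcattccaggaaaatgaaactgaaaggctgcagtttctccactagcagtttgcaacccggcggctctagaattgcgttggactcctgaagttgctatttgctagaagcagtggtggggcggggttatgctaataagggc

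The match began 20 bases before the start in Siglech, 87 in Klk1, 85 in Ccr9 and 205 in Bst2. Such a match is common, since 27.7% of 32851 RefSeq promoters of this length held at least 1. Of the 25 surface and identity genes with a promoter in the table, 8 held a match (32%), which is near that background. A match describes letters in the window and no binding was measured.

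Outside the lists, 12 genes with the largest excess over the cDC1 gate were named by rule: Iglc2, Sh3bgr, Cd59a, Atp2a1, Cmah, Lifr, Slpi, Ldhb, Prkca, Hs3st1, Nrip2 and Gm49087. Sh3bgr was at 162, 279 and 327 CPM and at 0 in both the cDC1 and the B cell sums of libraries 1 and 2, so it was at least 88.6-fold and at least 185-fold higher. Atp2a1, the fast-muscle calcium pump SERCA1, was at 205, 215 and 300 CPM, at least 81.3-fold above the cDC1 gate and at least 170-fold above the B cell gate. Together with Cox6a2 these are genes best known from striated muscle, and their UMIs were spread over the cells, in 27 or more of 44 pDCs of library 1. Cd59a, an inhibitor of the complement attack complex, was at 229, 225 and 245 CPM and at least 87.5-fold higher than in the cDC1 gate. Lifr, the receptor of leukaemia inhibitory factor, was at 117, 163 and 164 CPM and at least 55.4-fold higher. Slpi, a secreted protease inhibitor, was at 1014, 1179 and 1308 CPM against 2 UMIs in the cDC1 gate (ratio 642, 95% counting interval 177 to 5310).

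The pDCs also held the transcription factors of their lineage. Of 12 tested factors, 7 were higher than in the cDC1 gate (Tcf4, Spib, Runx2, Zeb2, Ets1, Bcl11a and Irf8), none was lower and 5 did not pass, with a median log2 difference of 1.86. Tcf4, the factor that sets pDC fate, was at 632, 579 and 218 CPM against 24.2 and 29.5 CPM in the cDC1 gate and 170 and 156 CPM in the B cell gate of libraries 1 and 2. It was higher than in both (log2 difference 4.19, SE 0.29, adjusted p = 3.44e-07, and 1.52, SE 0.22, adjusted p = 0.00011). All 3 pDC libraries exceeded every other value of Tcf4, and 41 of 44, 99 of 109 and 5 of 7 pDCs had a Tcf4 UMI. Runx2, needed for the exit of pDCs from bone marrow, was at 391, 302 and 81.8 CPM against 24.2 and 5.26 CPM (log2 difference 4.88, SE 0.42, adjusted p = 2.16e-06). Spib, an ETS factor, was at 227, 161 and 109 CPM and at 0 in both cDC1 sums, at least 73-fold higher, but it exceeded the B cell gate (118 and 47.3 CPM) by a log2 difference of 0.98 alone (adjusted p = 0.0133), a call that was lost with DESeq2 (adjusted p = 0.505) and without the library block (adjusted p = 0.113). Against B-gated cells without a UMI of Jchain, a gene of antibody-secreting cells, Spib was not called either (log2 difference 0.45, edgeR adjusted p = 0.148).

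Irf8, shared by pDCs and cDC1, was at 2332, 1773 and 654 CPM against 1155 and 1226 CPM, a small excess (log2 difference 0.56, SE 0.18, adjusted p = 0.0412) that did not pass without the library block (adjusted p = 0.44) or with DESeq2 (adjusted p = 0.0979). The 2 pDC sums that entered the main test lay above both cDC1 values, and the 7 pDCs of library 3 lay below them. Sums of at least 5 cells brought these 7 pDCs into the fit, and Irf8 then did not pass (log2 difference 0.37, edgeR adjusted p = 0.473). Irf7, the amplifier of interferon production, did not pass against the cDC1 gate, at 564, 312 and 927 CPM against 406 and 256 CPM (log2 difference 0.15).

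Factors of conventional dendritic cells went the other way in most cases. Of 11 tested, 6 were lower in pDCs than in the cDC1 gate (Id2, Zfp366, Batf3, Spi1, Zbtb46 and Rbpj), and 1, Irf4, was higher (list median -1.34 on the log2 scale). Id2 was at 56.2, 135 and 136 CPM against 1373 and 561 CPM (log2 difference -3.30, SE 0.43, adjusted p = 8.54e-05). Batf3, which cDC1 depend on, was at 4.5, 52.2 and 27.3 CPM against 82.2 and 133 CPM (log2 difference -2.10, SE 0.42, adjusted p = 0.00276). The calls of Batf3 and Zbtb46 did not hold with DESeq2 (adjusted p = 0.13 and 0.236) or without the library block (adjusted p = 0.178 and 0.124). Without the 13 marker-negative cells, library 2 fell from 135 to 35.4 CPM for Id2, from 52.2 to 22.9 CPM for Batf3 and from 19.6 to 6.24 CPM for Zbtb46, and library 1, which had none of these cells, did not move. Irf4, a factor of plasma cells and cDC2, was at 101, 60.3 and 27.3 CPM against 9.67 and 5.26 CPM (log2 difference 3.41, SE 0.53, adjusted p = 0.000432), and lower than in the B cell gate (124 and 157 CPM, log2 difference -1.21, adjusted p = 0.0083), where DESeq2 (adjusted p = 0.397) and the fit without the library block (adjusted p = 0.143) made no call.

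**Figure D3:**
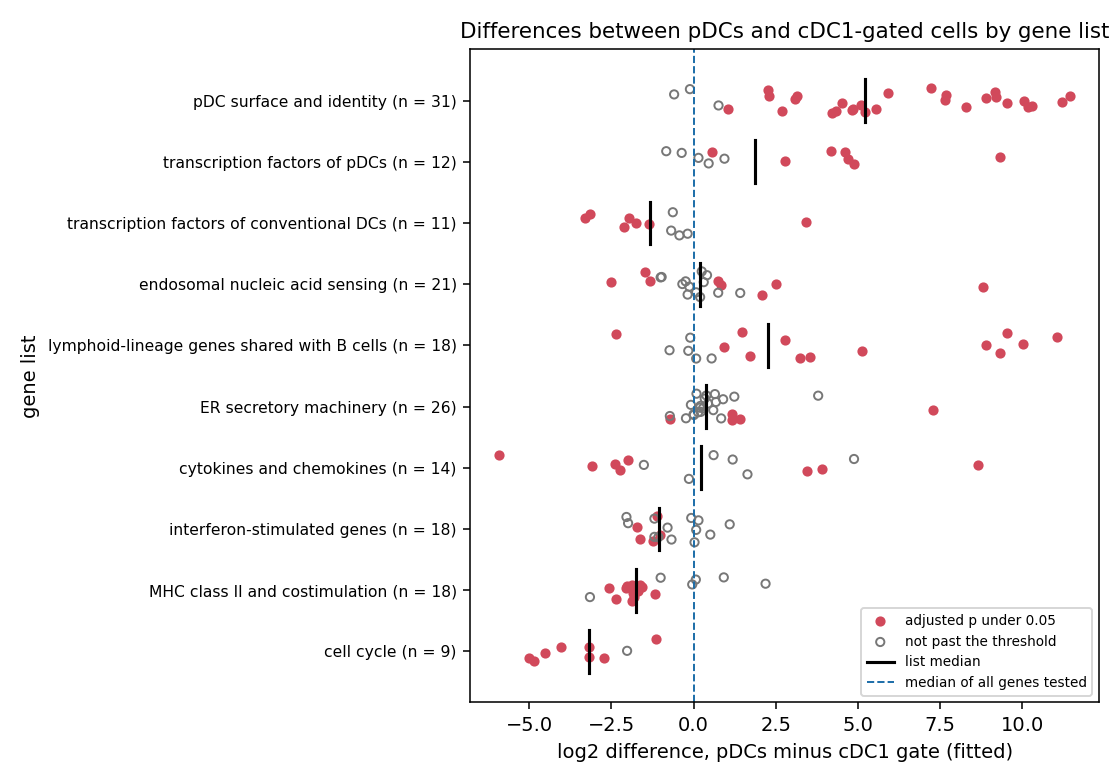
Fitted log2 difference of each tested gene between pDCs and the cDC1 gate (x axis) for 10 gene lists (y axis), with filled points for genes at an adjusted p under 0.05, open points for the rest, black bars for list medians and a dashed line at the median of all genes. The surface list has its median at 5.20, the cell cycle list at -3.19.

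pDCs share early lymphoid genes with B cells, and a list of 18 tested genes of this kind split in the same cells. Against the cDC1 gate 12 were higher and 1, Cd24a, was lower, with a median log2 difference of 2.26. Blnk, an adaptor of B cell receptor signalling, was at 418, 215 and 191 CPM and at 0 in both cDC1 sums, at least 116-fold higher, and did not pass against the B cell gate (237 and 169 CPM, log2 difference 0.22, adjusted p = 0.588). Dntt, which adds nucleotides to rearranging receptor genes, was at 180, 197 and 27.3 CPM, at least 73.3-fold above the cDC1 gate, against 0.956 and 0 CPM in B cells (log2 difference 7.88). Rag1 and Rag2, the recombinase genes, had 0 UMIs in the pDCs of every library.

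Immunoglobulin genes were part of this pattern. Iglc3, a lambda constant region, was at 504, 514 and 354 CPM, at 0 in both cDC1 sums (at least 197-fold higher), and at 379 and 469 CPM in the B cell gate, from which it did not differ by the test (log2 difference -0.10, adjusted p = 0.803). It had UMIs in 33 of 44, 79 of 109 and 5 of 7 pDCs, whereas Iglc2 had UMIs in 12, 42 and 2 of them. Iglc2 and Iglc3 are near-identical, so reads may be assigned to either. Ighm was at 558, 465 and 463 CPM against 140 and 126 CPM in the cDC1 gate (log2 difference 1.73, SE 0.23, adjusted p = 0.000127). By contrast Igkc, the kappa constant region and among the most abundant B-lineage RNAs, was at 31.5, 96.2 and 0 CPM in pDCs against 6825 and 8703 CPM in B cells. Ebf1, Pax5 and Ms4a1, which define B cells, had 0 UMIs in the pDCs of all libraries, and Ebf1 was at least 195-fold lower than in the B cell gate (769 and 391 CPM), although DESeq2 gave it an adjusted p of 0.145.

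Against the B cell gate 9 of the 18 lymphoid genes were lower (Ebf1, Vpreb3, Jchain, Pou2af1, Igkc, Cd79b, Cd24a, Ly6d and Btk) and 3 were higher (Dntt, Bcl11a and Spib). Jchain, which marks antibody-secreting cells, was at 9129 and 12804 CPM in the B cell gate, so that gate held such cells beside B cells. Without its cells with a Jchain UMI, which left 164 and 171 B-gated cells, 8 of 18 were lower and 3 higher. Spib was not among these 3 (log2 difference 0.45, edgeR adjusted p = 0.148).

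That choice decided the comparison of the secretory machinery, the chaperones and translocation factors of the endoplasmic reticulum that pDCs are known to hold in quantity. Against the whole B cell gate, 12 of 26 genes were lower in pDCs and 0 higher by edgeR (1 at an unadjusted p under 0.05, 0 by DESeq2), and the list's median lay at -0.74 on the log2 scale. Against B-gated cells without Jchain, 20 of 25 were higher and 1 lower, with a median of 1.17, where 17.3% of 7919 genes were called higher and 13.7% lower. Xbp1, the factor that drives this programme, was at 585, 431 and 327 CPM against 430 and 783 CPM, a log2 difference of -0.63 (adjusted p = 0.153) that became 2.63 (adjusted p = 3.11e-12) without the Jchain cells. Slpi likewise went from -2.32 to 4.57. Mzb1, a chaperone of antibody secretion, was at 182, 157 and 54.5 CPM and stayed lower than in B cells, at -4.54 and -1.76. Against the cDC1 gate 4 of 26 were higher (Mzb1, Xbp1, Edem2 and Dnajb9), 1 lower (Calr) and 21 did not pass, with a median of 0.37. The call of Xbp1 there was lost with DESeq2 (adjusted p = 0.125) and without the library block (adjusted p = 0.344).

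Endosomal nucleic acid sensing was next examined, as the route by which pDCs are activated. Of 21 tested genes, 5 were higher than in the cDC1 gate (Tlr7, Pld3, Slc15a4, Pld4 and Hsp90b1), 3 were lower (Tlr3, Chuk and Irf5) and 13 did not pass, with a median log2 difference of 0.20. Tlr7, the receptor of single-stranded RNA, was at 142, 114 and 27.3 CPM, against 0 in both cDC1 sums (at least 48.5-fold higher) and 22 and 10.2 CPM in the B cell gate (log2 difference 2.68, SE 0.32, adjusted p = 2.59e-05, or 0.429 with DESeq2). It was detected in 24 of 44, 42 of 109 and 1 of 7 pDCs. Tlr9, the receptor of CpG DNA, was low in every group, at 29.2, 24.5 and 54.5 CPM in pDCs against 9.67 and 22.1 CPM in the cDC1 gate and 13.4 and 10.9 CPM in the B cell gate, and passed neither test (log2 differences 0.25 and 0.76). Tlr3, the double-stranded RNA receptor of cDC1, was at 0, 31 and 0 CPM against 135 and 64.2 CPM (log2 difference -2.51, SE 0.65, adjusted p = 0.014, or 0.0792 without the library block), and fell from 31 to 10.4 CPM in library 2 without the 13 marker-negative cells.

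Proteins that carry and tune these receptors were also present. Slc15a4, a lysosomal transporter needed for TLR7 and TLR9 responses, was at 187, 104 and 109 CPM against 33.8 and 23.1 CPM (log2 difference 2.08, SE 0.32, adjusted p = 0.000354). Pld4, an exonuclease that degrades TLR9 ligands, was at 1032, 908 and 654 CPM against 551 and 402 CPM (log2 difference 0.84, adjusted p = 0.011, or 0.282 without the library block), and the pDC values lay above both cDC1 values. Unc93b1, the chaperone of these receptors, was at 1003, 731 and 654 CPM against 590 and 521 CPM and did not pass (log2 difference 0.41). Of 5 cytosolic and other sensors tested, 0 were called in either direction by edgeR, 0 by DESeq2 and 0 at an unadjusted p under 0.05. Thinned to 1000 UMIs, Tlr7 was detected in 15.9%, 11.9% and 14.3% of pDCs (mean 14.0% ± 2.0, SD, n = 3). The library 3 value is 1 of 7 cells, and at 2000 UMIs the shares were 14.0%, 20.8% and 0%. Tlr9 was detected in 2.59% ± 2.77 of pDCs at 1000 UMIs. The means in T-gated cells at that depth were 0.137% for Tlr7 and 0.0492% for Tlr9.

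Interferon transcripts were found in few pDCs and in library 1 only. Of 20 type I and III interferon genes, 9 had UMIs in pDCs, all in 6 of the 44 pDCs of library 1 (13.6%, exact 95% binomial interval 5.17 to 27.4) and 242 UMIs in all. None of the 109 pDCs of library 2 and none of the 7 of library 3 had one, which allows a share of cells with such a UMI of up to 2.75% and 42.9% (3 counts of the total) and sets no limit on cells that express these genes. Of these 242 UMIs, 220 came from 2 cells: 1 with 113 UMIs held 89 of Ifnl2, 23 of Ifnl3 and 1 of Ifna9, and another with 107 held 74 of Ifna5, 22 of Ifna4 and the rest of Ifna1, Ifna2, Ifna6 and Ifna9. The other 4 had 16 of Ifnl2, 4 of Ifnb1, 1 of Ifnb1 and 1 of Ifnl2. The cell rich in type I transcripts thus held no lambda interferon, and the cell rich in lambda transcripts held 1 UMI of a type I gene. Ifna genes are near-identical and reads can be assigned to the wrong member, so the family is safer than any gene of it.

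Ifna5, at 166 CPM in library 1, and Ifnl2, at 238 CPM, were called higher than in the cDC1 gate, but each rests on 1 to 3 cells of 1 mouse and was at 0 in libraries 2 and 3, and DESeq2 called 0 interferon genes. Elsewhere in library 1, 9 of 3804 other cells had 64 interferon UMIs, and 7 of those 9 had at least 2 Siglech UMIs and failed the rule on another gene (54 UMIs). In library 2, 5 of 8147 other cells had 5 UMIs. The 6 interferon cells had 4 to 29 Siglech UMIs, 4 to 13 of Ccr9, and 7 to 13 of Tcf4. Of the 6, 4 also had 1 or 2 UMIs of the T cell list, and the part of this in the result was not tested.

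**Figure D4:**
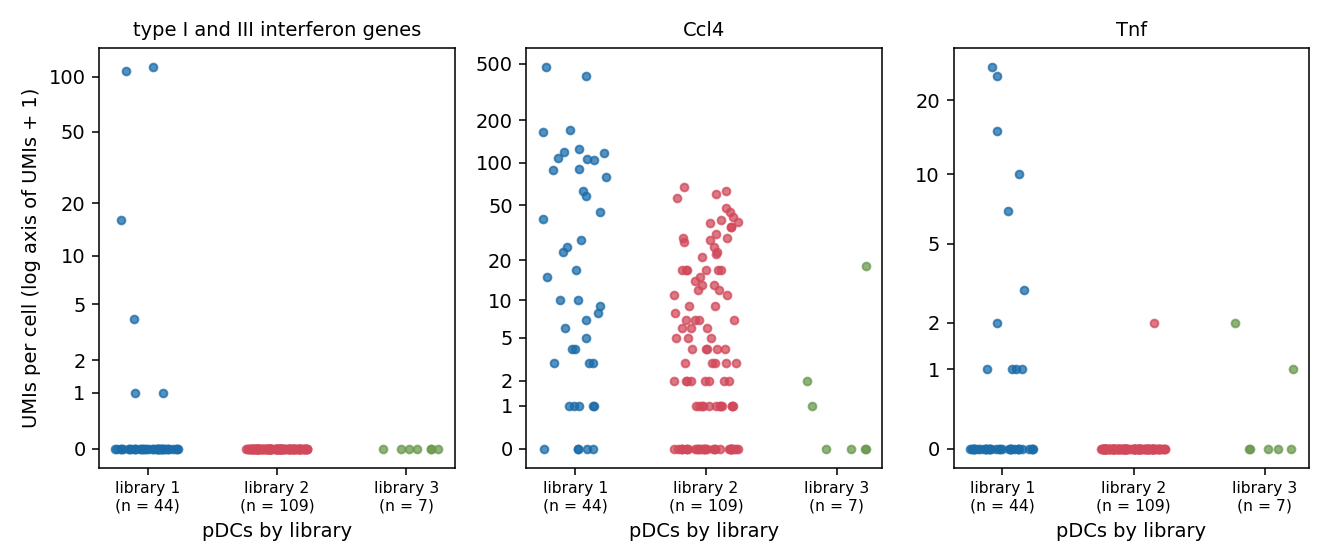
UMIs per pDC (log axis of UMIs + 1) of the summed type I and III interferon genes, Ccl4 and Tnf in libraries 1, 2 and 3 (n = 44, 109 and 7 cells). Interferon UMIs lie above 0 in 6 cells of library 1 and in no cell of libraries 2 and 3, while Ccl4 reaches 472, 67 and 18 UMIs.

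The promoters of Ifna5 and Ifna4, the pair with most type I UMIs, are shown with the interferon-response motif in capitals. The motif searched was GAAA, any 2 bases, and GAAA again, on either strand, so that the opposite strand reads TTTC, any 2 bases, and TTTC.
Ifna5 (chr4:88835275-88835524, plus strand): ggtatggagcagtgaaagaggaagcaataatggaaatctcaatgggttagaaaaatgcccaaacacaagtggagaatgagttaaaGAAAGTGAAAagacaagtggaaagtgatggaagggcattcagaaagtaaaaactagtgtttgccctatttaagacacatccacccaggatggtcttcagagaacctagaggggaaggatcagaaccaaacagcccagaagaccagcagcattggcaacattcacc
Ifna4 (chr4:88841566-88841815, plus strand): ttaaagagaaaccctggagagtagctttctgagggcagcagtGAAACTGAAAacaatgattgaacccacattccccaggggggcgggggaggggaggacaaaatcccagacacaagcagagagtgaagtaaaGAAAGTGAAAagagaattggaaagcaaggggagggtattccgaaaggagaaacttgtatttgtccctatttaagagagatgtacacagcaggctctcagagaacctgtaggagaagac

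The match began 165 bases before the start in Ifna5 and 208 and 118 bases before it in Ifna4. It was present in 11 of 19 interferon promoters (57.9%) and in 2.98% of all promoters of this length. The interferon promoters are near copies of each other, so these 11 are not independent.

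Among cytokines and chemokines, the chemokine Ccl4 and the interleukin-12 subunit Il12a were higher in pDCs than in the cDC1 gate. Of 14 tested genes, 3 were higher (Il12a, Ccl4 and Ccl3), 5 were lower (Ccl17, Cxcl9, Il1b, Cxcl16 and Cxcl10) and 6 did not pass, with a median log2 difference of 0.23. Ccl4 was at 5726, 1879 and 572 CPM against 121 and 204 CPM in the cDC1 gate (log2 difference 3.91, SE 0.40, adjusted p = 1.08e-05), and the lowest pDC library exceeded both cDC1 values. Its UMIs were found in 39 of 44, 78 of 109 and 3 of 7 pDCs with medians of 12.5, 3 and 0, and 5 cells gave 52.6% of the Ccl4 UMIs in library 1 and 25.5% in library 2. T-gated cells held 618 and 737 CPM in libraries 1 and 2. Ccl3 was at 609, 29.4 and 0 CPM against 9.67 and 9.47 CPM (log2 difference 3.46, SE 0.60, adjusted p = 0.00107), and in library 1 5 cells gave 97.4% of it. Its call was lost with DESeq2 (adjusted p = 0.338), and without library 1 its log2 difference was 1.59.

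Il12a was at 51.7, 119 and 54.5 CPM and at 0 in both cDC1 sums, at least 35-fold higher, with UMIs in 11, 38 and 1 pDCs, and it was the opposite of Ccl4 in that library 2 held more of it than library 1. Il12b, its partner in interleukin-12, was at 2.25, 26.1 and 0 CPM and was found in 1 of 44 and 1 of 109 pDCs, the latter a marker-negative cell, without which library 2 was at 0. Tnf was at 209, 3.26 and 81.8 CPM, found in 11 of 44, 1 of 109 and 2 of 7 pDCs, and did not pass (log2 difference 1.64). The Tnf UMIs of library 2 also came from a marker-negative cell. Of the 11 Tnf-positive pDCs of library 1, 8 had UMIs of the T cell list, as did 25 of the 44 pDCs there, 13 of 109 in library 2 and 0 of 7 in library 3. Il6 had 0 UMIs in all pDCs and Il10 1 UMI. Il1b (571, 121 and 0 CPM against 1580 and 927 CPM, log2 difference -2.38, adjusted p = 5.06e-05) and Cxcl9 (133, 34.3 and 0 CPM against 797 and 337 CPM, log2 difference -3.08, adjusted p = 1.49e-05) were lower than in the cDC1 gate, and without the 13 marker-negative cells their library 2 levels were 31.2 and 6.24 CPM.

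**Figure D5:**
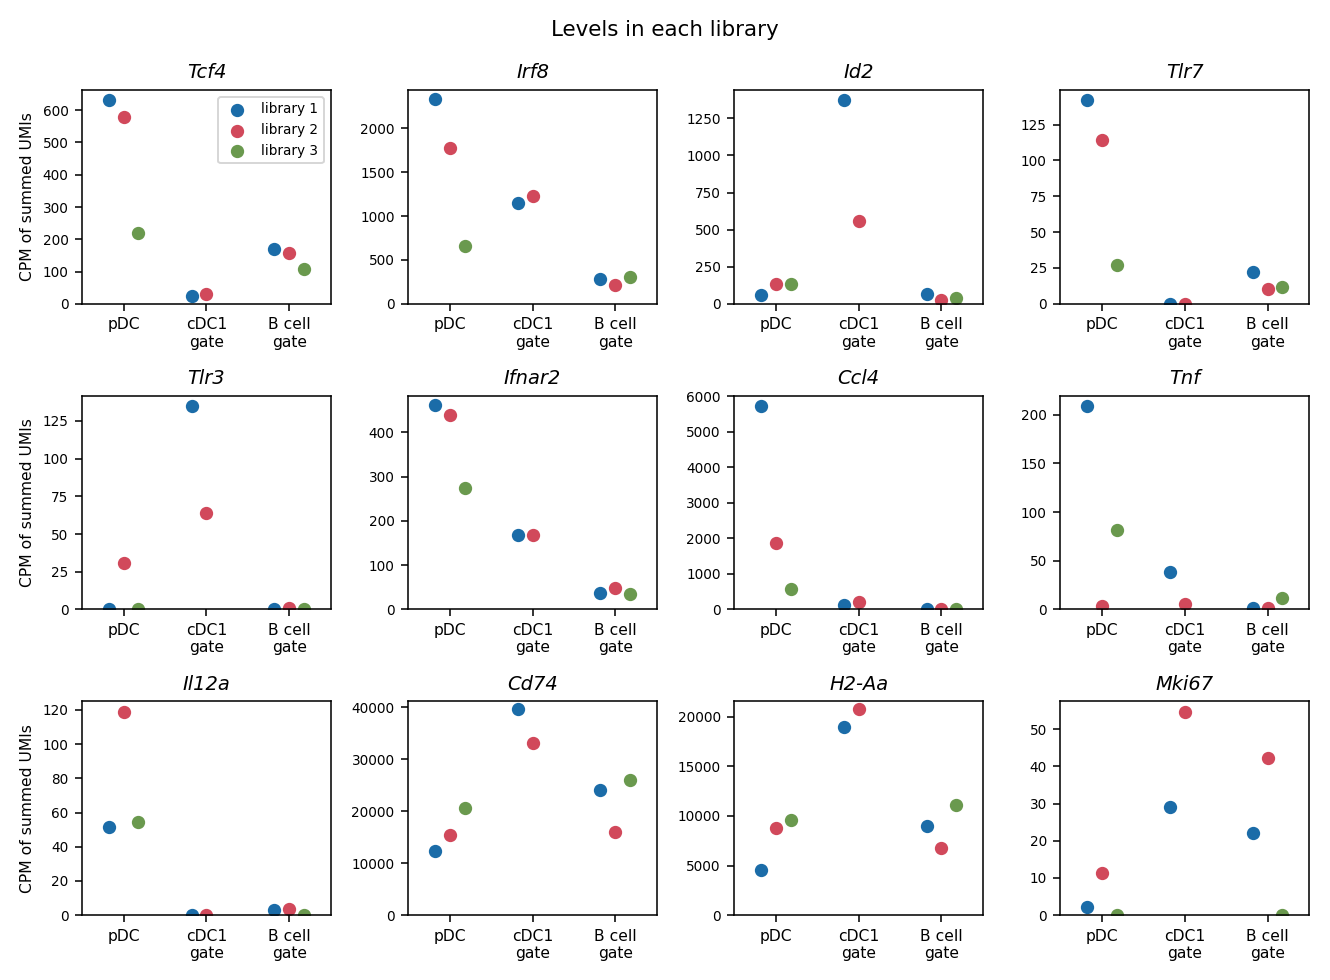
Levels (CPM of summed UMIs, each axis from 0) of 12 genes in the pDCs and B cell gate of libraries 1 to 3 and the cDC1 gate of libraries 1 and 2, with 1 point per library. Tcf4, Tlr7 and Ifnar2 lie higher in pDCs of libraries 1 and 2 than in either gate, Cd74 and H2-Aa lie lower than in the cDC1 gate, and Ccl4 and Tnf are highest in pDCs of library 1.

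No interferon-stimulated gene was called higher in pDCs than in cDC1-gated cells of the same nerves. Of 18 tested, 0 were higher by edgeR (1 at an unadjusted p under 0.05, 0 by DESeq2), 5 were lower (among them Ifit2, Xaf1, Isg15 and Ifi35, with 1 of the list lower by DESeq2) and 13 did not pass, with a median log2 difference of -1.05. Isg15 was at 241, 70.1 and 273 CPM against 372 and 199 CPM (log2 difference -1.22, SE 0.30, adjusted p = 0.01, but 0.171 with DESeq2 and 0.243 without the library block), and its pDC values overlapped with the cDC1 values across libraries while lying below them within each. Against the B cell gate 6 were higher (Ifi44, Isg15, Usp18, Oasl2, Ifit2 and Stat2) and 2 lower, among them Isg20.

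The subunits of the type I interferon receptor were called higher in pDCs by edgeR with the library block. Ifnar1 was at 261, 202 and 136 CPM against 135 and 75.7 CPM in the cDC1 gate (log2 difference 1.00, SE 0.26, adjusted p = 0.0147) and Ifnar2 at 461, 439 and 273 CPM against 169 and 168 CPM (log2 difference 1.22, SE 0.25, adjusted p = 0.00325). Against the cDC1 gate Ifnar1 did not pass with DESeq2 (adjusted p = 0.113) or without the block (adjusted p = 0.124), and Ifnar2 did not pass without the block (adjusted p = 0.0792). Both were also called higher than in the B cell gate (log2 difference of Ifnar1 1.94). Ifngr1, a subunit of the interferon-γ receptor, was lower than in the cDC1 gate, at 106, 84.8 and 136 CPM against 232 and 217 CPM (log2 difference -1.49), and at 49.9 CPM in library 2 without the marker-negative cells. Of the 9 receptors and regulators tested, 3 were higher (Ptpn6, Ifnar2 and Ifnar1), 1 was lower and 5 did not pass.

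Receptors and adaptors linked to the control of interferon release, not all of them inhibitory, formed a further group. Of 9 tested, 6 were higher than in the cDC1 gate (Lair1, Pacsin1, Ptprs, Cd300a, Tyrobp and Fcer1g), none lower and 3 did not pass, with a median log2 difference of 2.24. Lair1, an inhibitory collagen receptor, was at 510, 556 and 463 CPM against 9.67 and 14.7 CPM (log2 difference 5.10, SE 0.34, adjusted p = 2.32e-07). Tyrobp, which encodes DAP12, the signalling partner of SIGLEC-H, was at 4621, 4898 and 4225 CPM against 894 and 849 CPM (log2 difference 2.24). Ptprs, an inhibitory receptor phosphatase, was at 164, 148 and 27.3 CPM against 24.2 and 11.6 CPM (log2 difference 3.16, SE 0.37, adjusted p = 3.29e-05). Lilrb4a was uneven, at 83.2, 3.26 and 0 CPM, with UMIs in 10 pDCs of library 1 and in 2 marker-negative cells of library 2, and did not pass.

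Receptors that guide cells to tissue gave a mixed picture, with 5 of 17 higher than in the cDC1 gate (among them Cx3cr1, Ccr9, S1pr4 and Cxcr3), 3 lower (Itgae, Itgb7 and Itga4) and 9 not passing. Cxcr3, the receptor of CXCL9 and CXCL10, was at 96.7, 70.1 and 109 CPM against 9.67 and 30.5 CPM (log2 difference 1.57), with UMIs in 24 of 44 and 28 of 109 pDCs. Ccr2, the monocyte-attracting receptor, did not pass (412, 204 and 81.8 CPM against 478 and 208 CPM, log2 difference -0.33). Ccr7, the receptor for the lymph node ligands CCL19 and CCL21 and 1 of the gate genes, was at 47.2, 29.4 and 0 CPM, with UMIs in 4 and 2 pDCs (4.16 CPM in library 2 without the marker-negative cells), beside 5898 CPM in the mature dendritic cell gate. S1pr1, which guides exit from lymphoid organs, had 1 UMI in each of libraries 1 and 2, against 229 and 79.3 CPM in B cells.

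Of 12 cytokine receptors tested, Il7r and Il21r were higher than in the cDC1 gate, Kit, Ifngr1 and Csf2ra were lower and 7 did not pass. Il7r, known from lymphoid cells, was at 443, 424 and 491 CPM, with UMIs in 40 of 44, 90 of 109 and 5 of 7 pDCs, against 2 UMIs in the cDC1 gate (ratio 250, 95% counting interval 68.8 to 2070). Il21r, the receptor of the T cell cytokine interleukin-21, was at 162, 58.7 and 81.8 CPM against 48.3 and 21 CPM (log2 difference 1.39), with UMIs in 28 of 44 and 28 of 109 pDCs, and did not pass against the B cell gate (132 and 48 CPM, log2 difference -0.06). Flt3, which pDCs and conventional dendritic cells both need, did not pass (252, 184 and 109 CPM against 256 and 114 CPM, log2 difference 0.15).

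Antigen presentation genes were lower in pDCs than in the cDC1 gate as a group, with 12 of 18 lower, 0 higher by edgeR (also 0 at an unadjusted p under 0.05 and by DESeq2) and 6 not passing, and a median log2 difference of -1.74. Cd74, the invariant chain, was at 12429, 15466 and 20716 CPM against 39786 and 33075 CPM (log2 difference -1.58, SE 0.13, adjusted p = 1.62e-06). H2-Aa was at 4590, 8773 and 9595 CPM against 18912 and 20723 CPM (log2 difference -1.81, SE 0.19, adjusted p = 1.16e-05), and every pDC library lay below both cDC1 values. Without the 13 marker-negative cells, library 2 fell from 8773 to 5506 CPM for H2-Aa and from 15466 to 10767 CPM for Cd74. The level was uneven between cells: in library 1, 5 cells gave 51.4% of the H2-Aa UMIs, and the count ran from 0 to 373 UMIs with a median of 21. Cd86, a costimulatory ligand of T cells, was at 15.7, 57.1 and 54.5 CPM against 140 and 187 CPM (log2 difference -2.35, SE 0.46, adjusted p = 0.00238), and Ciita, the master regulator of MHC class II, was at 24.7, 55.5 and 27.3 CPM against 150 and 93.6 CPM (log2 difference -1.64, adjusted p = 0.00904). Without the marker-negative cells, library 2 was at 10.4 CPM for Cd86 and 27 CPM for Ciita. Neither was called by DESeq2 (adjusted p = 0.0739 and 0.202), and Ciita was not called without the library block (adjusted p = 0.134). Against the B cell gate 13 of 18 were lower and 2 higher (Tnfsf9 and Ctss).

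The pDCs carried few transcripts of dividing cells. Of 9 cell cycle genes tested, 8 were lower than in the cDC1 gate and 0 higher by edgeR (also 0 at an unadjusted p under 0.05 and by DESeq2), with a median log2 difference of -3.19. With DESeq2 the list had 1 lower gene in place of 8. Mki67 was at 2.25, 11.4 and 0 CPM, from 1 of 44, 3 of 109 and 0 of 7 pDCs, against 29 and 54.7 CPM (log2 difference -2.72, SE 0.49, adjusted p = 0.00134), and library 2 was at 2.08 CPM without the marker-negative cells. The call of Mki67 was lost without the library block (adjusted p = 0.0724) and without cells above the 95th percentile of UMIs (adjusted p = 0.143). Top2a had 1 UMI in all pDCs, against 14.5 and 45.2 CPM (ratio 0.0238, 95% counting interval 0.00059 to 0.139). Against the B cell gate 7 of 9 were lower, with a median of -2.95, and without the Jchain cells of that gate 0 were called in either direction by edgeR (1 at an unadjusted p under 0.05), with a median of -0.14. Pclaf, a partner of the replication clamp, had the largest deficit outside the lists against the cDC1 gate, with 1 UMI over libraries 1 and 2 (ratio 0.00659, 0.000166 to 0.0372).

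The other genes with the largest deficits outside the lists were Snx22, Fgl2, Anxa1, Gcsam, Naaa, Anpep, Slamf8, Ifi205, Tubb6, Acvrl1 and Cd9. Naaa, an amidase of lipid mediators, was at 51.7, 178 and 164 CPM against 735 and 744 CPM (log2 difference -2.92, SE 0.39, adjusted p = 0.000126), and at 33.3 CPM in library 2 without the 13 marker-negative cells. Anxa1, the glucocorticoid-induced annexin, was at 20.2, 63.6 and 81.8 CPM against 406 and 281 CPM (log2 difference -3.17, SE 0.38, adjusted p = 4.3e-05). Fgl2 was at 63, 89.7 and 136 CPM against 957 and 403 CPM (log2 difference -3.22, SE 0.35, adjusted p = 1.84e-05). Without the marker-negative cells library 2 was at 10.4 CPM for Anxa1 and 12.5 CPM for Fgl2, and with at least 4 Siglech UMIs the log2 differences were -6.27 for Anxa1, -5.05 for Fgl2 and -6.07 for Naaa. For these genes every pDC library lay below both cDC1 values.

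Markers of other lineages were checked in the pDCs. The 8 genes of the T cell list, Cd3 genes left out, summed to 117, 29.4 and 0 CPM in pDCs against 3620 and 3039 CPM in T-gated cells, with 7, 7 and 0 of them detected and Trbc1 at 0. The 8 genes of the B cell list summed to 33.7, 48.9 and 27.3 CPM, with 4 at 0. The 8 macrophage genes summed to 825, 434 and 382 CPM, of which Cd68, which pDCs also express, gave 407, 333 and 300 CPM. In the macrophage gate of libraries 1 and 2 the 8 genes summed to 9420 and 36137 CPM. That gate held 6 cells in library 1, under the minimum of 10, and 1800 in library 2. Of these 8, 7, 5 and 2 were detected, and Mrc1 was at 0. A single cell gave all 112 Apoe UMIs of library 1, so that the called excess of Apoe over the cDC1 gate rests there on 1 cell. Of 7 NK cell genes, Klrd1 (CD94) alone was abundant, at 555, 434 and 463 CPM in 41 of 44, 88 of 109 and 6 of 7 pDCs, against 58 and 40 CPM in the cDC1 gate (log2 difference 3.14, SE 0.29, adjusted p = 3.68e-06), while Ncr1, Klrb1c and Prf1 were at 13.5 CPM or less. Schwann cell genes summed to 29.2, 13 and 27.3 CPM, with Prx and Sox10 at 0. The monocyte and neutrophil list summed to 764.6, 420.8 and 81.8 CPM, against 594 and 492 CPM in the cDC1 gate of libraries 1 and 2. In library 1 Ccr2 gave 412 CPM of this sum and the gate gene Lyz2 297 CPM, while S100a8 was at 0. Ptprc, which encodes CD45, the antigen of the sort, was at 517, 347 and 354 CPM.

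Genes known from cells between pDCs and conventional dendritic cells gave a mixed picture. Of 7 tested genes of transitional dendritic cells, 2 were higher than in the cDC1 gate (Cx3cr1 and Cd8a), 2 were lower (Crip1 and Zbtb46) and 3 did not pass, with a median log2 difference of -0.77. Of 6 tested markers of conventional dendritic cells, 2 were higher (Clec10a and Mgl2), 2 were lower (Itgae and Zbtb46) and 2 did not pass, with a median of -1.14. Clec10a, a lectin of cDC2, was at 364, 269 and 27.3 CPM in pDCs, in 32 of 44 and 59 of 109 cells, against 0 and 6.31 CPM in the cDC1 gate (log2 difference 5.56) and 218 CPM in the cDC2 gate. Cd209a, a gate gene without a test, was at 403, 310 and 0 CPM, in 28, 55 and 0 pDCs. Axl was at 11.2, 0 and 0 CPM, and Cx3cr1 at 22.5, 9.79 and 0 CPM. Crip1, which was at 956, 1404 and 1227 CPM, was lower than in the cDC1 gate (4069 and 4271 CPM, log2 difference -2.07, SE 0.23, adjusted p = 2.05e-05), and at 788 CPM in library 2 without the marker-negative cells.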

How the data were processed

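CD45+ sciatic nerve cells of 3 libraries were profiled with 10x Genomics 5′ chemistry. The deposited files hold raw UMI counts per gene and cell, made by the authors with Cell Ranger 5.0.1 (library 1) or 6.1.2 (libraries 2 and 3, per the file headers) on mm10. Library 1 came without a gene list and was read in the row order of the others (rank correlation of row totals with library 2 0.950, or 0.355 when shifted by 1 row). Cells were kept at 5000 genes or fewer and 20% mitochondrial UMIs or fewer, and no doublet caller was run. Counts were summed per library and gate of at least 10 cells and tested with edgeR 4.0.16 (R 4.3.3): TMM scaling, filterByExpr, library as a block, adjusted p under 0.05. The gates of a library come from the same mice, which is where the pairing comes from. The cDC1 gate replaced a planned mean of 3 dendritic cell gates after cell counts were seen. The members and gene lists were chosen with earlier results of these data known. Genes outside the lists were named as the 12 with the largest fitted difference from the cDC1 gate in each direction, among called genes that moved alike in libraries 1 and 2 and reached 100 CPM in the higher group. The test was checked on simulated counts that used the B cell profile for every gate, which does not cover differences between distinct cell types. DESeq2 1.42.0, other filters, gates and depths were tried as alternatives. Promoter sequences are from RefSeq (GRCm38.p6). A few genes of the lists are counted but not reported here by name.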

Additional observations from a re-analysis of the deposited data

How the results depend on the processing

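The counts of called genes depended most on the tool and on the library block. With DESeq2, 223 of 4201 genes with an adjusted p were higher and 199 lower in pDCs than in the cDC1 gate. Against the B cell gate 432 of 5729 were higher and 203 lower. The main fit gave 7867 genes an adjusted p. In the list counts above, genes to which DESeq2 gave no adjusted p are among those not called. With no replicate block the counts were 388 and 229 against the cDC1 gate and 778 and 416 against the B cell gate. With sums of at least 5 cells, which admitted the 7 pDCs of library 3, they were 685, 591, 1020 and 853. Without library 3 the counts were 718, 641, 1103 and 856. This setting could show little, because library 3 entered the main fit with its B cell sum alone, which its own block term absorbs. Leaving out library 1 or 2 left no residual degrees of freedom for either comparison, so no test was possible there. Of 75 gene results in the text, DESeq2 left 49 with their direction and call, 23 without their call and 3 with no adjusted p. Those that lost it were, against the cDC1 gate, Klk1, Ccr9, Klra17, Cd209d, Dntt, Sla2, Sh3bgr, Atp2a1, Cd59a, Irf8, Batf3, Zbtb46, Ccl3, Isg15, Ifnar1, Cd86, Ciita, Xbp1 and Snx22, and, against the B cell gate, Spib, Irf4, Ebf1 and Tlr7. Without the replicate block 18 lost the call, among them, against the cDC1 gate, Irf8, Batf3, Zbtb46, Pld4, Tlr3, Irf5, Il1b, Isg15, Ifnar1, Ifnar2, Ciita, Mki67 and Xbp1, and against the B cell gate Spib, Irf4, Cd74 and Slpi. With sums of at least 5 cells 2 lost the call, among them Irf8 against the cDC1 gate. Requiring 4 Siglech UMIs, or a UMI of Klk1, Cox6a2 or Ccr9 (chosen after seeing the data), left all 75 calls and directions as they were. Sizes moved, however: 17 of the 75 log2 differences with 4 Siglech UMIs and 13 with a marker UMI changed by more than 1.5 times, all of genes lower in pDCs and all away from 0. With 4 Siglech UMIs Batf3 went from -2.10 to -5.01, Cd86 from -2.35 to -4.56 and Naaa from -2.92 to -6.07, and Tlr3 and Snx22 had 0 UMIs left in the pDCs tested. Only Xbp1 and Slpi turned direction against the B cell gate, to 2.63 and 4.57 on the log2 scale without its Jchain cells (chosen after seeing the data) and to 1.37 and 1.48 without cells above the 95th percentile of UMIs.

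The mean share of pDCs ran from 0.80 to 1.23% when 1 library was left out. It was 1.17% with 1 Siglech UMI or more and 0.804% with 4 or more. With at most 1 UMI of Cd3d, Cd3e and Cd3g together it was 1.13%. Among cells with at least 1000 UMIs, which kept all 160 pDCs, it was 1.07%. A limit of at least 300 UMIs per cell left it at 0.973% and could not move it, because every cell already had more UMIs. Detection shares moved with the depth setting, and cells shallower than the setting were left out. Without thinning, Ccr9 was found in 83.5% of pDCs, Cox6a2 in 61.2%, Tlr7 in 35.8%, Tlr9 in 21.8% and Irf7 in 79.3%, and at 2000 UMIs Ccr9 in 71.9% and Tlr7 in 11.6%. Leaving out each library moved the thinned shares from 32.6 to 52.4% for Ccr9, 42.5 to 52.9% for Cox6a2, 42.7 to 60.5% for Klk1, 13.1 to 15.1% for Tlr7, 1.14 to 3.89% for Tlr9, 29.9 to 47.9% for Irf7 and 0 to 3.41% for interferon genes. The interferon share rests on library 1 and is 0 without it. A planned fit of cells with UMIs of at most 1 listed gene of other lineages was not run. That limit left 0, 17 and 1 pDCs in libraries 1, 2 and 3, and its lists hold Klrd1 and Cd68, which the pDCs carried.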
